A study of Mus musculus with 7 samples.

Results

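The regions described here are stretches of the mouse genome at which a peak was listed in exactly 1 of 6 binding maps of LEF1 and TCF1. The peak intervals of the 6 lists on chromosomes 1 to 19 and X were merged where they overlapped by at least 1 bp, and a merged region was kept when only 1 list had a peak in it. Of 38215 merged regions, 8825 (23.1%) were kept, 18503 had a peak in 2 to 5 lists and 10887 had one in all 6. The members were therefore chosen by a measured value, their presence in the lists, so their numbers, widths and peak strengths are given as descriptions with no test. Their place relative to genes was not used in the choice and was tested. Their distance from regions of all 6 lists was tested too. Those regions are defined by presence in the same lists, so the distance is not independent of the choice.

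The maps were made by CUT&RUN, in which an antibody brings a nuclease to the DNA around a bound protein and the released fragments are sequenced. Cells labelled as wild type (WT) CD8 T cells with the transgenic P14 T cell receptor were sorted from spleen as CD8+, Ly5.1+, CD44- and CD62L+, the surface phenotype of naive cells, and were fixed before incubation with an antibody to LEF1 (3 libraries) or to TCF1 (3 libraries). An input control from another gate (CD8+, Ly5.1-, CD44+) is labelled in the series, and no list of it was analysed here. Nothing in the labels says that the replicates are different mice. The p-values therefore reflect only how these libraries vary among themselves, and that variation may be technical. The cells of all 6 libraries share the transgenic receptor and the fixation, and no cells without LEF1 or TCF1 were analysed here.

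LEF1 and TCF1, the product of Tcf7, belong to the same small family of HMG-box transcription factors. Both bind short sequences with a CTTTG core, can recruit beta-catenin or Groucho/TLE corepressors, and are known in T cells for their roles in thymic development and in keeping naive and memory cells in a state from which they can self-renew. Peak callers list places where signal passes a threshold over local background, so a place with signal near that threshold can be listed in 1 library and not in the next.

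The promoters shown here give the sequence next to the strongest one-list region of each library that touched a promoter window, because the libraries differed in how often such regions lay at the ends of genes. A window runs from 250 bases before to 50 bases after a RefSeq transcript start of GRCm38.p6, and the 250 bases before the start are printed 5′ to 3′ on the gene's strand. Capitals mark matches on either strand to 4 kinds of motif. A TCF/LEF-type core was counted where the letters CTTTGAT were found. The letters CTTTGTT counted as such a core too, as did the letters CTTTGAA in the same way. The ETS core was searched as CCGGAAG, the RUNX core as the letters TGTGGTT and the GC box as the letters GGGCGG, and matches of different kinds were allowed to overlap.
Asb13: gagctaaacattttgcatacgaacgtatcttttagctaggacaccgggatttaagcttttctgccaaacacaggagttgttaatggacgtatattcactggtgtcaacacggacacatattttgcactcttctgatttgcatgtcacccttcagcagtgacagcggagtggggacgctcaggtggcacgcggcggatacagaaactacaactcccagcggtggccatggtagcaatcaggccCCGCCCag
Slc39a3: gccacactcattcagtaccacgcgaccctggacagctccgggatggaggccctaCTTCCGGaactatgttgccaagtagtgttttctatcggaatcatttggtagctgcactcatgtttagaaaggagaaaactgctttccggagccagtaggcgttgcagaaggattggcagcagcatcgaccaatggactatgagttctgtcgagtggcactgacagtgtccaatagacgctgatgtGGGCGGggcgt
Xkr7: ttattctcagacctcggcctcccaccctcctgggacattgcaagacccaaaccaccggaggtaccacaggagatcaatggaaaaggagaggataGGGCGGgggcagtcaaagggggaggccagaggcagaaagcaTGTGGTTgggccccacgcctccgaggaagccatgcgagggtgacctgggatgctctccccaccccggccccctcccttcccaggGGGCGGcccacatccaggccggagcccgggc
Gamt: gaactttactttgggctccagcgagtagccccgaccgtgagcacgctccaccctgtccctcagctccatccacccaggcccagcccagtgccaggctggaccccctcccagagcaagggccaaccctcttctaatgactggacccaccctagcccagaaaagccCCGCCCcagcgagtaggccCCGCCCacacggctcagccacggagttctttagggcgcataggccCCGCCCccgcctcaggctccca
Dennd1a: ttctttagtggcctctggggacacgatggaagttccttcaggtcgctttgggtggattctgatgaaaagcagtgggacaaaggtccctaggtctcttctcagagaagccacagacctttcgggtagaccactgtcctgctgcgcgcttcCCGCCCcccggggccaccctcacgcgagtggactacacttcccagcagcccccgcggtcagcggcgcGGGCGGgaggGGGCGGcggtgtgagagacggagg

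The Asb13 stretch (chr13:3633782-3634031, plus strand) held part of a region of LEF1 replicate 1 with a deposited fold enrichment of 8.74, and Slc39a3, a zinc transporter gene (chr10:81037316-81037565, minus strand), held part of a region of LEF1 replicate 2 with a fold enrichment of 19.4. The Xkr7 stretch (chr2:153031602-153031851, plus strand) met a region of LEF1 replicate 3 at 5.34. Gamt, which encodes the last enzyme of creatine synthesis (chr10:80261013-80261262, minus strand), held a region of TCF1 replicate 1 at 11.6. The region of TCF1 replicate 2 at Dennd1a (chr2:38287385-38287634, minus strand), a gene of a Rab exchange factor, had a fold enrichment of 7.02 and lay 35 bases past the printed stretch, downstream of the start. All 5 stretches held at least 1 GC box and none held a TCF/LEF-type core. The only ETS core was at Slc39a3 and the only RUNX core at Xkr7. A match is a description of the letters and not a measured binding site.

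One library supplied most of the members. LEF1 replicate 2 held 7933 of the 8825 one-list regions (89.9%), LEF1 replicate 1 held 292, LEF1 replicate 3 held 127, TCF1 replicate 1 held 396 and TCF1 replicate 2 held 77. TCF1 replicate 3 held none, which allows a share of up to 0.0273% of its 10982 regions. The order follows the length of the lists at its ends: LEF1 replicate 2 had the longest list (37632 peaks) and TCF1 replicate 3 the shortest (11418), with 22894 to 27654 peaks in the others. As a share of a library's own regions the members made up 21.4% in LEF1 replicate 2 and 0.345% to 1.58% in the other 4 libraries that held any. The sources used here give no read totals, and intervals on shares cover counting error only.

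**Figure D1:**
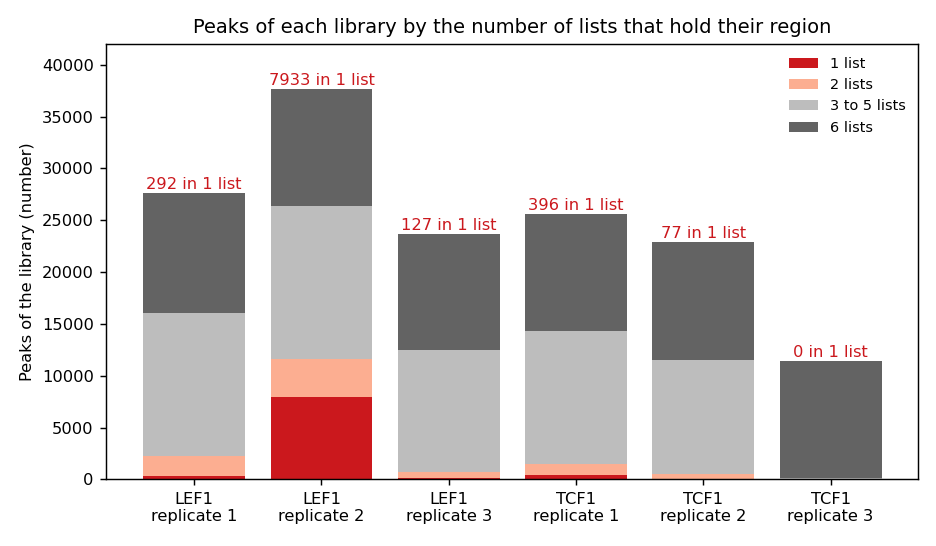
Number of peaks in each library (bars from 0), coloured by the number of lists that hold a peak in the same merged region, with the count of one-list regions printed above each bar. LEF1 replicate 2 holds 7933 one-list regions, and TCF1 replicate 3 has none, with 11323 of its 11418 peaks in regions of all 6 lists.

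The long list of LEF1 replicate 2 also contained most of what the others held. Of the regions of LEF1 replicates 1 and 3, 98.5% and 99.2% also had a peak in LEF1 replicate 2, and the shares for TCF1 replicates 1, 2 and 3 were 97.5%, 98.8% and 99.9%. Regions of exactly 2 lists, the nearest to the members by the rule, numbered 3891. Their most common pair was LEF1 replicates 1 and 2 (1912 regions), followed by LEF1 replicate 2 with TCF1 replicate 1 (922) and with LEF1 replicate 3 (542). TCF1 replicates 1 and 2 shared 143 such regions.

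When LEF1 replicate 2 was left out and the rule became exactly 1 of the remaining 5 lists, 4677 regions were kept. Of these, 2259 came from LEF1 replicate 1, 1342 from TCF1 replicate 1, 705 from LEF1 replicate 3, 371 from TCF1 replicate 2 and 0 from TCF1 replicate 3. Among the 5 lists that could be left out beside it, only leaving out LEF1 replicate 3 gave TCF1 replicate 3 any members, 2 regions.

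The members were narrow and weak for their lists. Their median width was 161, 176 and 180 bp in LEF1 replicates 1, 2 and 3 and 194 and 177 bp in TCF1 replicates 1 and 2, while the median over all peaks of these libraries ran from 340 to 376 bp. Fold enrichment, the authors' ratio of signal at the summit to local background, had a median of 5.02 in LEF1 replicate 1, 6.15 in LEF1 replicate 2, 4.85 in LEF1 replicate 3, 5.04 in TCF1 replicate 1 and 4.92 in TCF1 replicate 2. In LEF1 replicate 2 the median rose from 6.15 for one-list regions to 7.52 for regions of 2 lists, 11.5 for 3 to 5 lists and 29.1 for all 6. Only 317 members of LEF1 replicate 2 (4%) and 1 each of LEF1 replicate 3 and TCF1 replicate 1 ranked above the median of their own list by deposited fold enrichment.

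**Figure D2:**
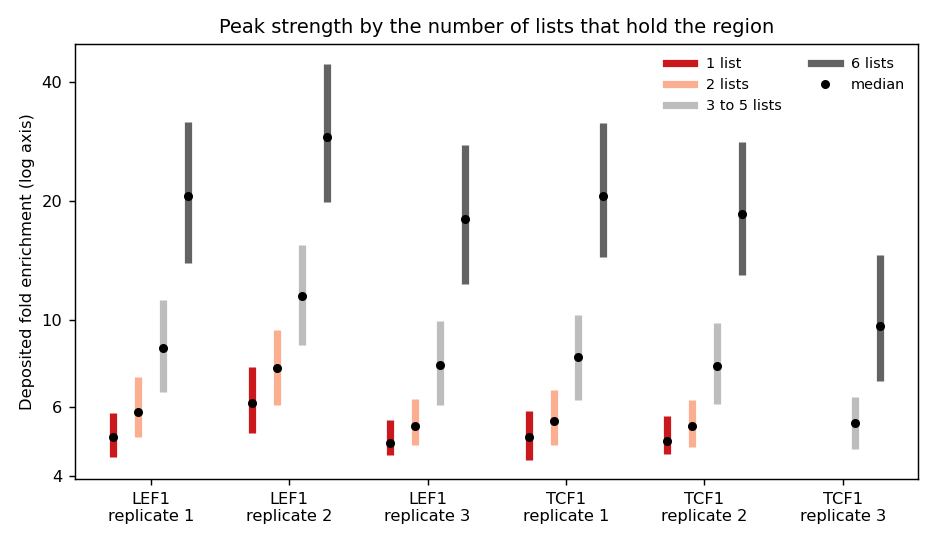
Deposited fold enrichment (log axis) of each library's peaks by the number of lists holding the region, with coloured bars from the lower to the upper quartile and black dots at the median. In LEF1 replicate 2 the medians run from 6.15 in 1 list to 29.1 in 6 lists. The 2 peaks of TCF1 replicate 3 in regions of 2 lists are not drawn.

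Many members lay close to a peak that another library did list. A peak of another list lay within 500 bp of 58 of the 292 members of LEF1 replicate 1 (19.9%), 872 of LEF1 replicate 2 (11%), 38 of LEF1 replicate 3 (29.9%), 96 of TCF1 replicate 1 (24.2%) and 22 of TCF1 replicate 2 (28.6%). Within 2 kb these shares were 50.3%, 31.9%, 52.8%, 45.2% and 44.2%. The share was lowest in LEF1 replicate 2 at both distances. Of the 7933 members of LEF1 replicate 2, 2166 (27.3%) had another member of the same library within 10 kb. The counts were 8 of 292 in LEF1 replicate 1 (2.74%), 8 of 396 in TCF1 replicate 1 (2.02%) and none in the remaining libraries. A library with more members has more chances of such a neighbour. Whether the members of any library cluster beyond their number was not tested.

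The one-list regions of the TCF1 libraries lay mostly at genes' ends, and those of the LEF1 libraries mostly inside genes or between them. A region was placed by its strongest summit, at a gene end when a protein-coding gene began or ended within 1 kb of the summit. In LEF1 replicates 1, 2 and 3, 13.4% (39 of 292), 12.3% (976 of 7933) and 19.7% (25 of 127) of the members were at gene ends. In TCF1 replicates 1 and 2 the shares were 56.3% (223 of 396; 95% Clopper-Pearson interval 51.3 to 61.3) and 57.1% (44 of 77; 45.4 to 68.4). Both TCF1 values lie above all 3 LEF1 values, whose highest interval ends at 27.7%.

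The mean share was 15.1% ± 3.99 (SD, n = 3) for LEF1 and 56.7% ± 0.587 (SD, n = 2) for TCF1, a difference of -41.6 percentage points. Over the 10 ways of assigning 3 and 2 libraries the two-sided exact permutation p was 0.1, the smallest this design allows, with an adjusted p of 0.167 over the 5 tests made (Benjamini-Hochberg). The difference is larger than the spread between libraries and the design cannot reach the usual threshold. When the rule was applied without LEF1 replicate 2 the difference was -22.7 points, and without LEF1 replicate 3 it was -24.9 points. In the latter setting TCF1 replicate 3 entered the TCF1 mean with only 2 regions. With intervals of 250 bp on each side of the summits the difference was -21.4 points. Members outside genes and away from their ends made up 38.7%, 37% and 31.5% in the LEF1 libraries and 14.9% and 15.6% in the TCF1 libraries. Their means were 35.7% ± 3.76 (SD, n = 3) and 15.2% ± 0.485 (SD, n = 2), again with an exact permutation p of 0.1 and an adjusted p of 0.167. This difference of 20.5 points fell to 9.38 when LEF1 replicate 2 was left out. It fell to 11.1 when LEF1 replicate 3 was, again with the 2 regions of TCF1 replicate 3 in the TCF1 mean. It was 6.88 points with the summit intervals (exact permutation p of 0.5). The rest, 47.9%, 50.7% and 48.8% in the LEF1 libraries and 28.8% and 27.3% in the TCF1 libraries, lay inside protein-coding genes. Exonic and intronic positions were not distinguished.

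The gene table does not say which end of a gene is its start, so RefSeq transcript starts were used as well. Outside chromosome 18, which is not in the promoter table used, a start lay within 1 kb of the summit of 53.8% of the members of TCF1 replicate 1 and 54.5% of those of TCF1 replicate 2. The shares were 7.75%, 9.66% and 18.2% in LEF1 replicates 1, 2 and 3. Among regions of 2 to 5 lists and of all 6 lists the shares were 19.1% and 28.7%. Of the gene-end members, 80.8% and 81.8% in the TCF1 libraries and 53.8%, 61% and 70.8% in the LEF1 libraries had such a start. The same held for 72.2% of the gene-end regions of 2 to 5 lists and 80.1% of those of all 6, so the TCF1 values were near the latter.

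The members were also set against regions of the same library that were found in 2 to 5 lists. The gene-end share of the comparison regions was 19.5%, 21.5% and 19.4% in the LEF1 libraries and 25.6% and 26.3% in TCF1 replicates 1 and 2. The share of the members minus that of the comparison regions was -6.10, -9.25 and 0.314 percentage points in LEF1 replicates 1, 2 and 3, and 30.7 and 30.8 points in TCF1 replicates 1 and 2. The comparison regions are shared between libraries, so these differences are not independent. Over the 5 libraries the mean difference was 9.30 points, with a two-sided exact permutation p of 0.438 by sign flips (adjusted 0.547; the smallest possible is 0.0625). This mean changed to 0.894 points without LEF1 replicate 2, -6.35 without LEF1 replicate 3 and 5.93 without TCF1 replicate 2. Without LEF1 replicate 3, TCF1 replicate 3 entered the mean with only 2 regions as members. The mean was 1.74 points with the summit intervals and 14 points over peaks with a −log10 q of at least 5. In TCF1 replicate 3, which has no members, 70.5% of its 95 regions in 2 to 5 lists were at gene ends.

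**Figure D3:**
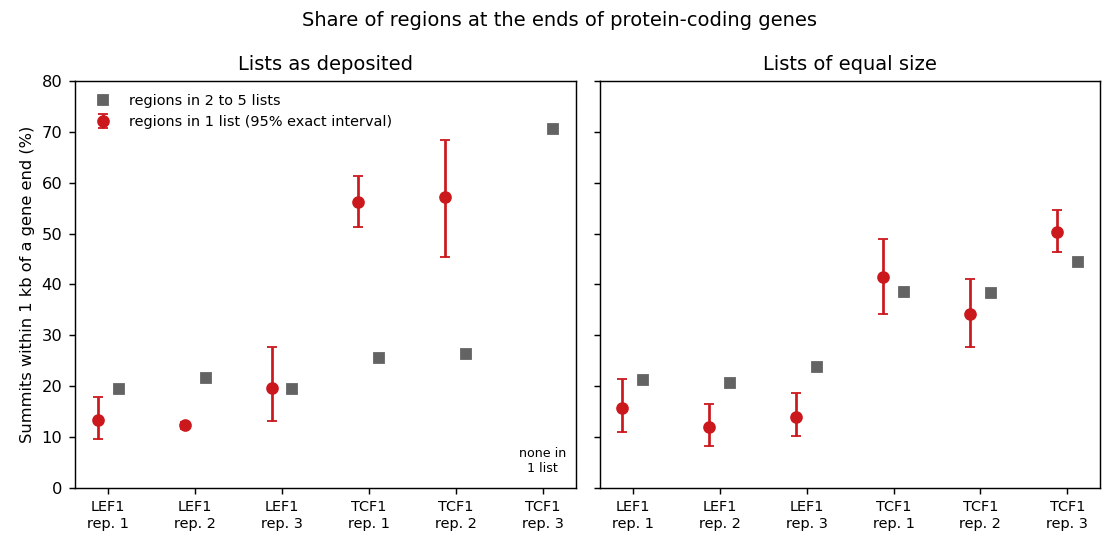
Percent of regions whose summit lies within 1 kb of an end of a protein-coding gene, by library, for one-list regions (red, with 95% exact binomial intervals) and regions of 2 to 5 lists (grey squares), with the lists as deposited (left) and cut to 11418 peaks each (right). The TCF1 values for one-list regions, 56.3% and 57.1% on the left and 34.2% to 50.4% on the right, lie above the LEF1 values in both panels.

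Because longer lists reach weaker peaks, the rule was also applied to the 11418 peaks of highest −log10 q in each library. This gave 1708 one-list regions, with 204, 260 and 278 in LEF1 replicates 1, 2 and 3 and 181, 202 and 583 in TCF1 replicates 1, 2 and 3. These are largely other regions, since 11 of LEF1 replicate 2 and 1 of LEF1 replicate 3 were also one-list regions with the full lists and none in the remaining libraries was. The lowest −log10 q still listed differed, from 34.2 in LEF1 replicate 2 to 2 in TCF1 replicate 3. At equal size the gene-end share was 15.7%, 11.9% and 14% in the LEF1 libraries and 41.4%, 34.2% and 50.4% in the TCF1 libraries. The difference of the means was -28.1 points, with an exact permutation p of 0.1, the smallest for 3 against 3. The comparison regions of 2 to 5 equal lists were at gene ends in 20.6% to 23.7% of cases in the LEF1 libraries and in 38.4% to 44.4% in the TCF1 libraries. At equal size the one-list and comparison shares were 41.4% and 38.5% in TCF1 replicate 1, 34.2% and 38.4% in replicate 2 and 50.4% and 44.4% in replicate 3. The mean of the one-list minus comparison shares over the 6 libraries was -3.18 points (exact permutation p of 0.281).

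The members of the TCF1 libraries lay farther from regions found in all 6 lists than those of the LEF1 libraries. The median gap was 10.6 kb in LEF1 replicate 1, 19.4 kb in LEF1 replicate 2, 12.7 kb in LEF1 replicate 3, 26.3 kb in TCF1 replicate 1 and 38.9 kb in TCF1 replicate 2. Both TCF1 medians exceed the 3 LEF1 medians. The means were 14.2 kb ± 4.62 (SD, n = 3) and 32.6 kb ± 8.89 (SD, n = 2), with an exact permutation p of 0.1 and an adjusted p of 0.167. The difference of -18.4 kb was -12.1 kb without LEF1 replicate 2 and -211 kb without LEF1 replicate 3. In the latter setting TCF1 replicate 3 entered the TCF1 mean with only 2 regions. The difference was -31.7 kb without TCF1 replicate 1 and -5.49 kb without TCF1 replicate 3. Leaving out TCF1 replicate 3 kept nearly the same number of members (8827) but changed the set of regions to which gaps were measured. The LEF1 minus TCF1 difference was -43.2 kb over peaks with a −log10 q of at least 5. With intervals of 250 bp on each side of the summits in place of the listed intervals, the sign turned and LEF1 was 2.85 kb farther. Compared with regions of 2 to 5 lists in the same libraries, members were 3.06 kb farther on average (exact permutation p of 0.562, adjusted 0.562), with differences of -6.58, 1.07 and -4.36 kb in the LEF1 libraries and 6.95 and 18.2 kb in the TCF1 libraries. Leaving out LEF1 replicate 3 changed that mean to 118 kb, where the 2 regions of TCF1 replicate 3 then entered as members, and leaving out TCF1 replicate 3 changed it to -1.08 kb. It was 4.92 kb and 7.71 kb with peaks up to 500 and 2000 bp apart merged, 0.999 kb without TCF1 replicate 2, 1.62 kb at equal list sizes and 17 kb at a −log10 q of at least 5.

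**Figure D4:**
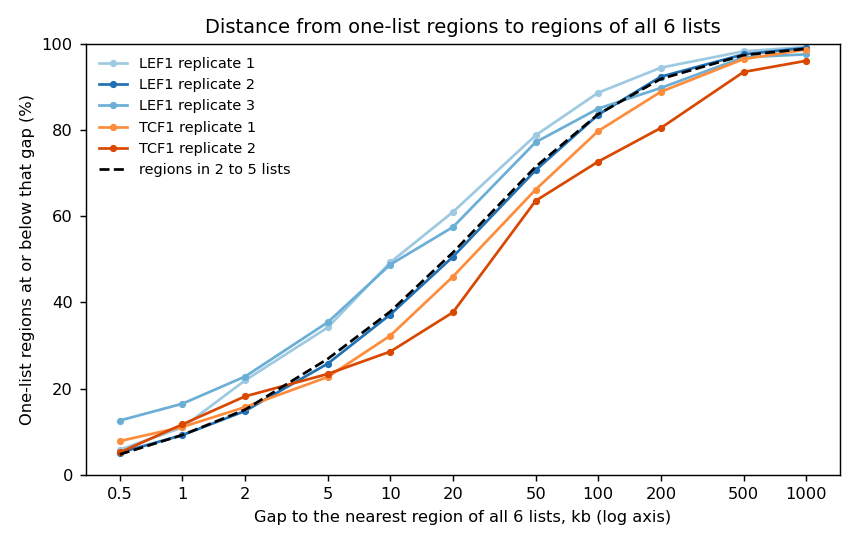
Percent of one-list regions whose gap to the nearest region of all 6 lists is at or below the distance on the x axis (kb, log axis), by library, with regions of 2 to 5 lists as a dashed line. The curve of TCF1 replicate 2 (median 38.9 kb) lies below the others from 10 kb on, and that of LEF1 replicate 2 (median 19.4 kb) runs close to the dashed line.

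In the 4 libraries with over 100 members, split into 4 parts of equal size by fold enrichment, the strongest part had a larger median gap than the weakest. In LEF1 replicate 2 the part with the lowest fold enrichment (2.53 to 5.16, 1984 regions) had a median gap of 16.4 kb and the part with the highest (7.58 to 26.4, 1983 regions) one of 23 kb. The share within 2 kb of such a region was 19.8% in the former and 10.2% in the latter, and the gene-end share was 14.9% and 10.3%. In TCF1 replicate 1 the gene-end share was 51.5% in the weakest part and 64.6% in the strongest, with 99 regions in each and overlapping 95% intervals. These values carry no test, since the members of a library are not replicates.

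The 4 strongest members of LEF1 replicates 1 and 2 lay inside or outside genes, and none was at a gene end. In LEF1 replicate 2 the highest fold enrichments were 26.4 inside Rnf157, a ubiquitin ligase gene (chr11:116368215-116368482, 0.956 kb from a region of all 6 lists), and 26.1 at chr14:53020282-53020419, 0.103 kb from the variable segment Trav7d-6 of the T cell receptor alpha locus. They were followed by 21.5 inside Itga5, the integrin alpha chain that pairs with beta 1 to bind fibronectin (chr15:103352989-103353136), and 21.1 at 1.36 kb from Pmpcb, a mitochondrial processing peptidase gene (chr5:21735700-21735944). The strongest member of LEF1 replicate 1 was at the same receptor locus (10.1, 0.259 kb from Trav9n-1, chr14:53101456-53101600). Variable segments of this locus exist in near-identical copies in the mouse, so the copy to which such reads belong is uncertain.

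The T cell receptor alpha locus as a whole held 29 one-list regions over 1.80 Mb, 27 of them from LEF1 replicate 2 and 2 from LEF1 replicate 1, beside 66 regions of 2 to 5 lists and 24 of all 6. Over all regions 23.1% were in 1 list, and LEF1 replicate 2 held 89.9% of those, so the locus was near both shares. This count was made after the strongest members were seen. The next members of LEF1 replicate 1 by strength were inside Elk4, an ETS-family gene (9.54, chr1:132014947-132015086), 25.3 kb from Rims2 (9.54, chr15:39172978-39173114) and 20.5 kb from Slc38a2, an amino acid transporter gene (9.30, chr15:96666861-96667030).

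In LEF1 replicate 3 the strongest member had a fold enrichment of 14.5 and lay 430 kb from its nearest protein-coding gene, Serpinb8, and 1171 kb from the nearest region of all 6 lists (chr1:108038455-108038786). A peak of another list was nevertheless 2.19 kb away. Next came 7.64 at 1.06 kb from Hfe, a gene of iron uptake control (chr13:23700911-23701419), 7.55 inside Serpinb10 (chr1:107533712-107534028) and 7.27 at the end of Jrkl (chr9:13242377-13242532). The other members of this library lay below these values, with a median of 4.85.

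All 4 of the strongest members of TCF1 replicate 1 were at gene ends. They lay at Gamt (11.6, chr10:80261007-80261176), Bag5, a co-chaperone gene (10.3, chr12:111713107-111713365), Epb41l2, a membrane skeleton gene (9.84, chr10:25359662-25359846), and Senp3, a SUMO protease gene (9.38, chr11:69681990-69682131). Their gaps to a region of all 6 lists ran from 9.25 to 33.9 kb. In TCF1 replicate 2, members at the ends of Dennd1a (7.02, chr2:38287194-38287349) and Vamp2, a vesicle fusion gene (6.61, chr11:69088308-69088462), were among the strongest 4. The others were inside Inpp5a, an inositol phosphatase gene (7.02, chr7:139442626-139442880), and 9.80 kb from Serp2 (6.71, chr14:76566807-76566956).

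The promoter windows touched by members are described over each factor's lists and by library. One-list regions touched 737 of the 32585 windows, 497 by the LEF1 lists and 242 by the TCF1 lists. LEF1 replicate 2 supplied 474 of the 497 LEF1 windows, and LEF1 replicates 1 and 3 supplied 15 and 8, so the pooled LEF1 values are nearly those of 1 library. The median GC content was 57.7% for the LEF1 windows and 66.8% for the TCF1 windows, against 53% over all windows and 61% for those touched by regions of 2 to 5 or of all 6 lists. By library it was 63%, 57.3% and 68.3% in LEF1 replicates 1, 2 and 3 and 67% and 63.5% in TCF1 replicates 1 and 2. The libraries of the 2 factors thus overlapped, with LEF1 replicate 2 below the others. The median number of CpG pairs per window was 17 for LEF1, 28 for TCF1, 7 over all windows and 22 for both comparison classes.

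The TCF/LEF-type core was in 12.9% of the LEF1 windows (64 of 497; 95% exact interval 10.1 to 16.1) and 3.72% of the TCF1 windows (9 of 242; 1.71 to 6.94), beside 13.9% of all windows, 8.48% of those with regions of 2 to 5 lists and 11.6% of those with regions of all 6. By library it was in 2 of 15, 62 of 474 and 0 of 8 windows in LEF1 replicates 1, 2 and 3 and in 7 of 212 and 2 of 30 in TCF1 replicates 1 and 2. The pooled LEF1 value therefore rests on LEF1 replicate 2. This core is rich in A and T, and the TCF1 windows had the highest GC content of the classes. The part of base composition in the difference was not tested. The GC box was in 53.7% of the LEF1 windows, 75.2% of the TCF1 windows, 35.9% of all windows and 62.9% and 68.6% of those with regions of 2 to 5 and of all 6 lists. It was in 66.7%, 52.5% and 100% of the windows of LEF1 replicates 1, 2 and 3 and 73.1% and 90% of those of TCF1 replicates 1 and 2. The ETS core was in 15.9% of the LEF1 windows, 24% of the TCF1 windows, 8.92% of all windows and 23.5% and 20.4% of the comparison classes. By library the ETS shares were 40%, 15% and 25% for LEF1 and 23.1% and 30% for TCF1, again with LEF1 replicate 2 lowest. The RUNX core was in 4.83% of the LEF1 windows, 2.89% of the TCF1 windows and 5.29% of all windows. With equal list sizes the TCF/LEF-type core was in 10.5% of 86 LEF1 windows and 7.41% of 499 TCF1 windows, with overlapping intervals of 4.90 to 18.9 and 5.27 to 10.1, and GC content was 53.7% and 62.7%. These shares are descriptions. One region can touch the windows of several transcript starts, and 635 one-list regions touched the 737 windows. The windows are therefore not independent, although the intervals treat them so.

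A one-list region touched the body of, or the 10 kb on each side of, 5666 of 21627 protein-coding genes (26.2%). The LEF1 lists reached 5305 genes (24.5%) and the TCF1 lists 652 (3.01%), and without the members of LEF1 replicate 2 the count over both was 1020. Of the 5666 genes, 3203 (56.5%) also had a region of all 6 lists, against 34.2% of all protein-coding genes, and 914 (16.1%) had no region other than one-list ones. The genes were long, with a median of 28.3 kb against 17.3 kb over all, and a long gene offers more room for a region. Most had a single one-list region (3800 genes), 678 had at least 3, and the highest number was 13.

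The genes with the most members were Acoxl and Bach2 with 13 each, Sgms1, a sphingomyelin synthase gene, with 12, and Arhgef3, Jak1, Lrch1, Rere and Ubash3b with 10 each. All 13 at Acoxl, a gene of 287 kb, came from LEF1 replicate 2, the source of 89.9% of all members. Bach2 encodes a repressor that keeps T cells from effector differentiation, and 12 of its members came from LEF1 replicate 2 and 1 from TCF1 replicate 1. The gene also had 17 regions of all 6 lists, and its strongest member had a fold enrichment of 12 (chr4:32305841-32305976, 1.17 kb from a region of all 6 lists). Jak1 encodes the kinase shared by many cytokine receptors, and LEF1 replicates 1 and 2 gave it 1 and 9 members. Ubash3b, a phosphatase gene that dampens receptor signalling in T cells, had 9 from LEF1 replicate 2 and 1 from LEF1 replicate 3.

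The genes of the 2 mapped factors both held members. Lef1 had 7, with 2 from LEF1 replicate 1 (fold enrichments of 4.83 and 4.48) and 5 from LEF1 replicate 2 (4.13 to 6.76), and none from a TCF1 list. All 7 lay inside the gene, 0.868 to 8.17 kb from one of its 11 regions of all 6 lists. Over the whole genome the TCF1 lists held only 473 of the 8825 members, so few were to be found at any 1 gene. Tcf7 had 5 inside the gene, with 3 from LEF1 replicate 2 (9.09, 5.39 and 3.89), 1 from TCF1 replicate 1 (4.34, chr11:52264471-52264612) and 1 from TCF1 replicate 2 (4.55, chr11:52254264-52254414). The 2 TCF1 members did not overlap one another and lay 0.977 and 11.2 kb from a region of all 6 lists.

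Other genes of naive T cells held members mainly from LEF1 replicate 2, which held 89.9% of the members over all regions. Ccr7, the receptor that guides naive cells to lymph nodes, had 4 members (4.83 to 6.40), all from that library. Bcl2, the survival gene, had 9, of which 8 were from LEF1 replicate 2 and 1 from LEF1 replicate 1. Foxp1, a quiescence factor, had 5 from LEF1 replicate 2, up to 12.3, and 1 from TCF1 replicate 1 at 6.15. Ets1 had 6 from LEF1 replicate 2 and 1 from LEF1 replicate 1.

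Tox, a driver of the exhausted state, had 5 members, Bcl11b, a T lineage commitment gene, had 4, and Satb1 and Cd8a had 2 each. Il7r, the interleukin 7 receptor gene, had 1 (4.31). All members at these 5 genes came from LEF1 replicate 2, the source of 89.9% of all members. At Tox 2 of the 5 were 81.7 and 88.8 kb from a region of all 6 lists, and the others 4.75 to 7.57 kb.

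The 3 gene lists with the most regions of all 6 lists per 100 kb also had the most one-list regions. At least 1 member touched 18 of 20 T cell identity genes, 17 of 20 naive and stem-like genes and 17 of 22 cytokine receptor and signalling genes, where 26.2% of all protein-coding genes had one. The counts were 14 of 24 for effector and exhaustion genes, 11 of 20 for Wnt pathway genes, 11 of 24 for housekeeping genes, 5 of 12 for B cell genes, 4 of 14 for myeloid and dendritic cell genes, 2 of 12 for NK and helper T cell genes and 0 of 16 for genes of other tissues. Per 100 kb of gene and flanks there were 3.31 members at T cell identity genes, 3.13 at naive and stem-like genes and 3.68 at cytokine genes, against 0.599 over all genes. The same lists had 6.85, 5.52 and 5.60 regions of all 6 lists per 100 kb, against 0.826 over all genes.

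**Figure D5:**
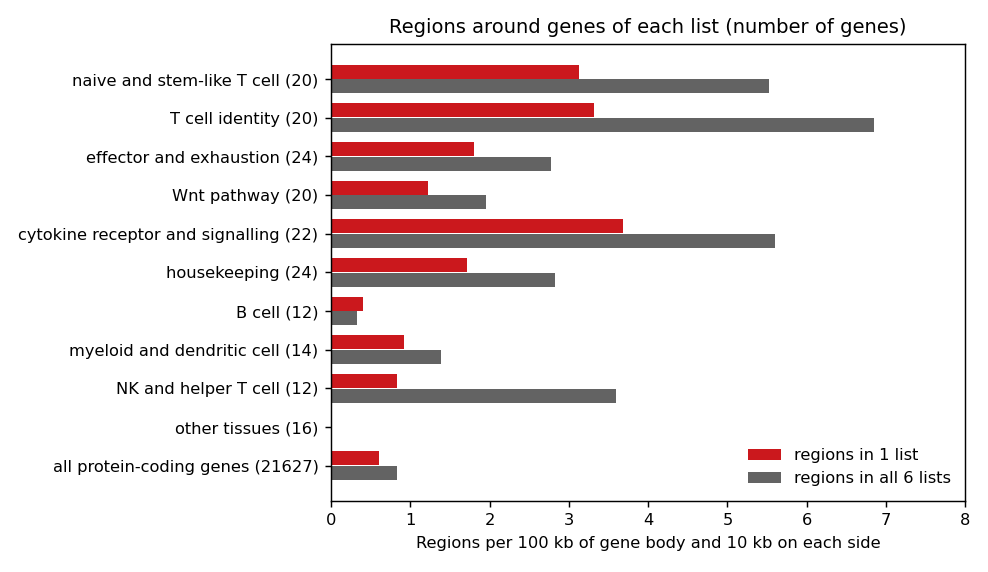
Number of one-list regions (red) and regions of all 6 lists (grey) per 100 kb of gene body and 10 kb on each side, for the gene lists and for all protein-coding genes, with the number of genes in parentheses. T cell identity genes have 3.31 one-list regions and 6.85 regions of all 6 lists per 100 kb, and genes of other tissues have none of either.

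The median number of members per gene was 2 in the T cell identity list, 1.5 in the naive and stem-like list, 1 in the effector, Wnt and cytokine lists and 0 in the others and over all genes. Named by number of members within their lists, Jak1 (10) and Tgfbr2, a receptor chain for TGF-beta (8), led the cytokine list. Znrf3, a ligase that removes Wnt receptors (7), and Apc (3) led the Wnt list. Il2ra, the interleukin 2 receptor alpha chain, had 4 in the effector list after Tox. In the T cell identity list Ets1 had 7, and Bcl11b had 4, as did Cd2 and Themis. Spi1, a myeloid transcription factor gene, had 3, of which 1 was from a TCF1 list, and Cebpb had 1. In the NK and helper list Ctla4 had 2 and Il4 had 1, and in the housekeeping list Psmb4, Rpl3 and Ubb had 2 each. Each of the 5 B cell genes with members had 1, Bank1 and Cd79a among them.

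With the rule unchanged and the members of LEF1 replicate 2 set aside, 1020 of 21627 protein-coding genes (4.72%) had a member. Genes in this paragraph other than those named above were named after their values were seen. Naive and stem-like genes with members from other libraries included Bach2, Bcl2, Foxp1, Lef1 and Tcf7. The T cell identity list had 4 such members, at 4 of its 20 genes (Cd2, Cd247, Ets1 and Lck). The Wnt list had 3, at 3 of 20 genes (Apc, Dvl2 and Fzd5), and the housekeeping list had 0 at its 24 genes. The labelled cell type was checked with regions of all 6 lists, which touched 8 of 8 CD8 T cell genes (37 regions), 2 of 6 B cell genes (3 regions) and 2 of 6 myeloid genes (3 regions). Of all protein-coding genes 34.2% had such a region, so the B cell and myeloid counts were near the share over all genes.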

How the data were processed

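The libraries are CUT&RUN libraries of sorted mouse CD8 T cells, grouped by the antibody and replicate number of the sample titles. The submitters' processing notes name MACS3 3.0.3 among the tools, with Bowtie2 2.4.4, Trim Galore 0.6.6, deepTools 3.5.1, FastQC 0.12.1 and Picard, and the build GRCm38.p6. Options and control of the peak calling: not given in the sources used here. Peaks were called by the authors per library, per the peak names in the deposited lists. The deposited fold enrichment is the authors' ratio of summit signal to local background, and p-values and q-values were deposited as −log10 values, the smallest −log10 q being 2 to 2.06. The deposited score equalled 10 times the −log10 q cut to a whole number for at least 99.8% of the peaks of each list. How duplicates and repeats were treated, and list length, decide which peaks exist.

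Intervals with several summits were counted once, and coordinates are 1-based. Gene positions came from a RefSeq table of GRCm38.p6 with 21627 protein-coding genes on the chromosomes used, without strand or exons, and promoter windows from RefSeq (32585 windows on 19 chromosomes). All 184 genes of the 10 gene lists were found. Group means were compared by two-sided exact permutation tests with Benjamini-Hochberg adjustment over 5 tests. The tests were planned for 6 libraries and used the 5 that had members. Numbers of regions and genes got no test. Alternatives were equal list sizes, a −log10 q of at least 5, wider merging, summit windows, each library left out, other gene windows and gene tables, and the replicate block. The 3 alternatives that use transcript starts, a LEF1 mean without replicate 2, or gene counts without a library were chosen after seeing the data.

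The members, gene lists and tests were chosen with earlier results of these data known. Named were 12 fixed genes, the 4 strongest members of each library by fold enrichment, the 8 genes with the most members, the top 2 genes of each list by number of members, and the genes of the printed promoters. Python 3.11.15, numpy 2.4.6, pandas 2.3.3 and scipy 1.17.1 were used, and the code was tested on simulated lists with 200 planted regions, all recovered. Some results of genes in the lists are not reported here.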

Additional observations from a re-analysis of the deposited data

How the results depend on the processing

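The lower gene-end share of LEF1 members kept its direction under all 17 alternatives run, and the higher outside-gene share under all 14. With summit windows they were -21.4 and 6.88 percentage points. With libraries left out they ran from -51.5 to -22.7 and from 9.38 to 24. The LEF1 minus TCF1 distance kept its sign in 12 of 13, was 2.85 kb with summit windows and was -43.2 kb at a −log10 q of at least 5; with libraries left out it ran from -211 to -5.49 kb. The gene-end difference between one-list and comparison regions was -3.18 points at equal list sizes, 1.74 with summit windows and 14 at a −log10 q of at least 5, and ran from -6.35 (without LEF1 replicate 3) to 11 with libraries left out. The distance difference between them was -5.62 kb with summit windows, 17 kb at that −log10 q and -1.54 kb against regions of exactly 2 lists. With libraries left out it ran from -1.08 (without TCF1 replicate 3) to 118 kb (without LEF1 replicate 3). All values without LEF1 replicate 3 include TCF1 replicate 3 as a library with only 2 members. The number of one-list regions was 1708 at equal sizes and 5620 with peaks up to 2000 bp apart merged, and ran from 4677 (without LEF1 replicate 2) to 10536. Genes with a member numbered 1793 at equal sizes, 10106 within 50 kb and 1020 without the members of LEF1 replicate 2, and ran from 3761 to 6354 with libraries left out. With the replicate block (2 same-numbered pairs with members, smallest exact permutation p 0.5) the LEF1 minus TCF1 differences were -43.9 points at gene ends, 22.6 points outside genes and -17.6 kb. Same-numbered libraries had Pearson correlations of 0.0394, 0.0719 and 0.0929 over the 10887 regions of all 6 lists. The other pairs ran from -0.0839 to 0.0223, so each library correlated best with its own number, though weakly. These correlations are given only to compare pairs by number, and not as a measure of how alike LEF1 and TCF1 signal was. What same-numbered libraries share was not tested. The libraries' names in the labels carry other numbers than the titles used for the pairs. The cause of these shifts was not tested. Equal list sizes kept largely other regions, so that setting cannot tell what list length does to the members as deposited. The smallest p-value of any alternative was 0.0625, the least that 5 libraries allow. Without read totals, an unlisted region is one not called, and not one without signal.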
